A study of Homo sapiens with 4 samples.

Results

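Chromosome 1 carries 3807 of the 39259 genes in a table of RNA sequencing of MDA-MB-231, an established cell line of triple-negative human breast cancer. Its genes were taken as those whose first listed exon lies on chromosome 1 and were ordered by their smallest start. Changes were measured for 1194 genes whose mean over the 4 libraries reached 1 FPKM (fragments per kilobase of gene and per 1000000 assigned fragments). Another 1130 genes were listed at 0 in every library, and 1483 were above 0 with a mean under 1 FPKM. The groups were 2 libraries of wild-type (WT) cells and 2 libraries labelled KO, for a knockout of mdig (also called mina53), the JmjC-domain protein encoded by RIOX2. Cells of both groups grew in DMEM/F-12 with serum, and the labels give no agent, no clone and no method of knockout. Nothing in the labels says that the libraries came from separate cultures, so p-values measure only the spread between libraries. With 2 libraries against 2, an exact permutation test of a single value cannot go below p = 0.333.

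RIOX2 RNA, on chromosome 3, was 8.60 and 8.24 FPKM in the WT libraries and 9.23 and 9.82 FPKM in those labelled KO. Its RNA was thus not lower under the KO label, which it does not check, since a knockout can leave the transcript in place. The libraries held 22503981 to 52163811 assigned fragments, and WT replicate 2 was the shallowest. VIM, CD44, KRT18 and EGFR, expressed by this mesenchymal-like line, ran from 47.2 FPKM (EGFR) to 2394 FPKM (VIM), while ESR1 and PGR were at or near 0 and ERBB2 was at 12.7 to 14.3 FPKM. CDH1 was 0.177 and 0.128 FPKM in WT and 0.597 and 0.625 FPKM in KO libraries. Among markers of leukocytes, endothelial cells and fibroblasts, PTPRC, CD3E, VWF and LUM were at or below 0.156 FPKM. COL1A1 (1.86 and 2.09 FPKM in WT, 3.01 and 2.70 in KO libraries), PECAM1 and PDGFRB were called higher by limma, and their part in the results was not tested.

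Chromosome 1 is the longest human chromosome, with a gene-rich end of the short arm, a large block of repeats beside the centromere and several families of neighbouring genes. These include the S100 genes, which encode small calcium-binding proteins, and the guanylate-binding proteins, GTPases that interferon induces. In aneuploid cancer lines, whole segments of a chromosome can differ in copy number between cultures or clones, and the RNA of their genes then tends to differ together. No DNA was analysed here, so copy number was not tested.

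The promoter bases of 7 genes show the letters before the transcription start of the genes the results turn on. They are the induced-family genes GBP1 and GBP3, the S100 genes S100A2 and S100A4, KISS1, which had the largest fall among tested chromosome 1 genes, and PRKACB and RPF1, which flank the switch described later. Each line gives the 250 bases before the RefSeq start on GRCh38.p14, 5′ to 3′ on the gene's strand. Capitals mark matches on either strand to 3 motifs.
GBP1 (chr1:89065209-89065458, minus strand): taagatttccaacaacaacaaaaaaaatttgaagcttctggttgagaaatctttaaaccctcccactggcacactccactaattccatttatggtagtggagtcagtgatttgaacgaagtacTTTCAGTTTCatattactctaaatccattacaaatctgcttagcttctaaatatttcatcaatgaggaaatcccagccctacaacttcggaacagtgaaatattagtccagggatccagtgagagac
GBP3 (chr1:89022867-89023116, minus strand): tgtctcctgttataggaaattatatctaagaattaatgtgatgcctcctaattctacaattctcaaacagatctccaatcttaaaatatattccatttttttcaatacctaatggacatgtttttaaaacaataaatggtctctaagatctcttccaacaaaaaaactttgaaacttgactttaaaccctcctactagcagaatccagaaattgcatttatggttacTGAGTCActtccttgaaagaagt
S100A2 (chr1:153565845-153566094, minus strand): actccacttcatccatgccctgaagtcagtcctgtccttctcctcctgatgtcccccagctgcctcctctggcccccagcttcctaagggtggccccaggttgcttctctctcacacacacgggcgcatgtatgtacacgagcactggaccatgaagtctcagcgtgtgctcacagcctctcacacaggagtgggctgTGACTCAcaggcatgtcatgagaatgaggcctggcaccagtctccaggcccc
S100A4 (chr1:153545807-153546056, minus strand): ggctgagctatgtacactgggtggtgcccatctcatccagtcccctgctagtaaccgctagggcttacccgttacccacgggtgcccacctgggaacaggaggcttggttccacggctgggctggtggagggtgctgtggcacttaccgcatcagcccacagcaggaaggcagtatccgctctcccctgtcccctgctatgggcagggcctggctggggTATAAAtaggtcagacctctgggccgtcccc
KISS1 (chr1:204196492-204196741, minus strand): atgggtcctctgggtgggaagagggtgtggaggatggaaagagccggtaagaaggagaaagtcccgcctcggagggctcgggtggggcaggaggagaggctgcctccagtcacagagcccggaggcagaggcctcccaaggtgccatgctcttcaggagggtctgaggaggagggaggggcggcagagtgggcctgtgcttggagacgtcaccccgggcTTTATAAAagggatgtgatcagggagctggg
PRKACB (chr1:84077829-84078078, plus strand): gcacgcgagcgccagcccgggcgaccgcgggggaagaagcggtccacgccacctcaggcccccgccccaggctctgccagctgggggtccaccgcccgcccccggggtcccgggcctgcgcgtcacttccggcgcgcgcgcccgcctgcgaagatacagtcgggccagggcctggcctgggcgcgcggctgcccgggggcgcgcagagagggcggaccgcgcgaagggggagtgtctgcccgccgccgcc
RPF1 (chr1:84479016-84479265, plus strand): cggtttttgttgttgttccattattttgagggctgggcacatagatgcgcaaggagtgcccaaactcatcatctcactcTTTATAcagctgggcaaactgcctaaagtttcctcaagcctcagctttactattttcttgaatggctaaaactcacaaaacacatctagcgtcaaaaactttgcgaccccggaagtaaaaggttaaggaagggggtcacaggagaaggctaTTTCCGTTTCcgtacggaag

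The motifs were the interferon-stimulated response element (GAAA, any 2 bases, GAAA), the AP-1 site TGANTCA and the TATA box TATAAA, with N for any base. They were present in 3.02%, 6.57% and 10.7% of the 35116 promoters in the RefSeq table, searched over the same 250 bases. Of 37 genes looked up, 35 were in that table. In the windows printed, GBP1 had 1 match to the interferon element, GBP3 and S100A2 had 1 AP-1 match each, and S100A4 had 1 TATA match. KISS1 had 2 overlapping TATA matches, RPF1 had 1 TATA match and 1 match to the interferon element, and PRKACB had none. The neighbours S100A2 and S100A4 therefore shared none of the 3 motifs in these letters. PRKACB and RPF1 differed in base composition, with 80.8% and 44.8% G or C. A match is a description of the sequence only.

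RNA of most genes in the first 75 Mb of the short arm, called the distal stretch here, was higher in the libraries labelled KO than in WT. The median change of its 506 tested genes was 0.23 on the log2(FPKM + 1) scale, and 0.33, or 1.26-fold, when the fragments were modelled with voom. The raised stretch ended within the short arm, between about 75 and 85 Mb, and not at the centromere. The short arm beyond 85 Mb and the long arm lay near the median of all 11716 tested genes, which was -0.04. The changes on chromosome 1 are what the stretch bounds were drawn from, after the values had been seen, so they are described here without a test. In bulk RNA, fewer cells with a transcript and less of it per cell cannot be told apart.

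Split at the 21.7 Mb without a gene start that holds the centromere (chr1:121573496-143301205), the arms had 672 and 522 tested genes. The median change was 0.17 on the short arm and -0.08 on the long arm, a difference of 0.25 (0.29 with voom). The step at the centromeric gap itself was -0.00012, from -0.08 over the 30 tested genes before it to -0.08 over the 30 after it. On the short arm, the 146 tested genes from 85 Mb to the gap, the proximal stretch, had a median of -0.06, 0.01 above the long arm. The 20 genes between 75 and 85 Mb had a median of 0.06.

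Each KO library lay above each WT library in the distal stretch. The median change was 0.24 and 0.22 for KO replicate 1 against WT replicates 1 and 2, and 0.24 and 0.23 for KO replicate 2. Within groups, replicate 2 minus replicate 1 had a median of 0.01 in WT and of 0.01 in KO libraries. The distal change was larger than the median difference within either group, but the bounds of the stretch were drawn from these changes. In all, 425 of the 506 genes (84.0%) had a change above 0, and the middle 50% of changes ran from 0.09 to 0.36.

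By limma with Benjamini-Hochberg adjustment over all tested genes (threshold 0.05), 49.9% of all tested genes on all chromosomes differed, 21.6% higher and 28.4% lower in the KO libraries. On chromosome 1, 392 genes were called higher, 227 lower and 575 neither. Of those called, 63.3% were higher, against 73.7% with median-of-ratios scaling and 74.5% with voom. The distal stretch had 300 genes called higher and 26 lower, the middle stretch 7 and 3, the proximal stretch 23 and 39, and the long arm 62 and 159. Scaling moved the balance outside the distal stretch. The share of calls that were higher went from 37.1% to 53.8% in the proximal stretch and from 28.1% to 44.6% on the long arm with voom, and only from 92.0% to 95.8% in the distal stretch. Both KO libraries were above both WT libraries for 382 distal genes (75.5%), against 32.9% of all tested genes.

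Leaving out a KO library changed the number of calls more than their direction. Without KO replicate 1, 266 genes of chromosome 1 were called higher and 114 lower, and without KO replicate 2 these were 255 and 127. In the distal stretch the counts were 204 and 15 without KO replicate 1, and 201 and 13 without KO replicate 2. They were 14 and 16, and 12 and 21, in the proximal stretch, and 43 and 82, and 38 and 92, on the long arm. Without WT replicate 1, 47 distal genes were called lower in place of 26. The distal median stayed between 0.22 and 0.24 in these 4 fits.

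**Figure D1:**
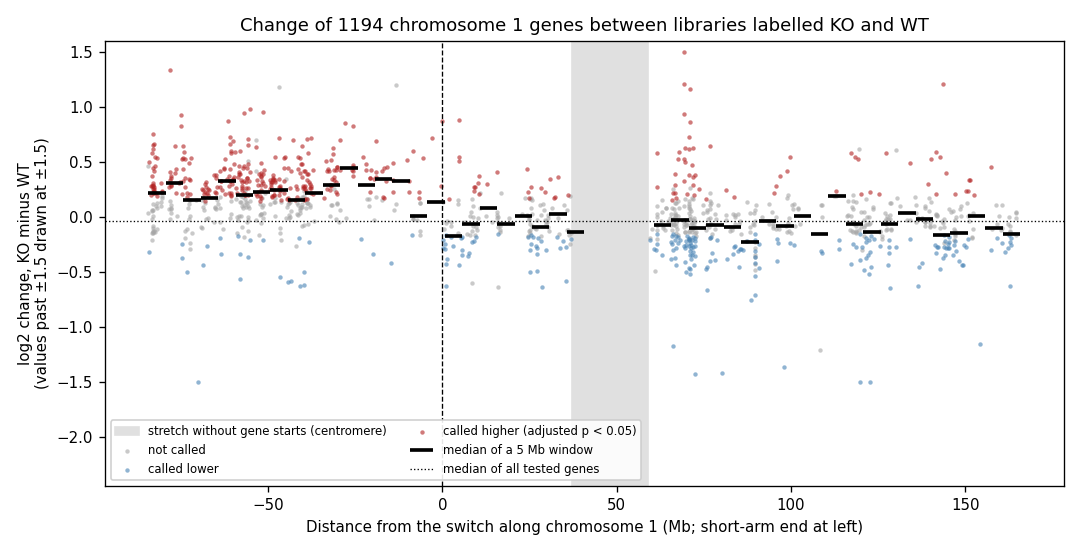
Change of each of the 1194 tested genes of chromosome 1 (points; y axis, log2(FPKM + 1), libraries labelled KO minus WT) against distance in Mb from the switch between PRKACB and RPF1 (dashed line), with medians of 5 Mb windows as black bars. The 15 windows of the distal stretch at the left sit between 0.15 and 0.44, and the grey band is the centromeric gap.

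In windows of 5 Mb, a window with at least 5 tested genes was counted as higher or lower where its median lay at least 0.1 from the median of all tested genes. On chromosome 1, 18 of 46 windows were higher, 22 level and 6 lower. On the other chromosomes, 25.5% of 478 windows were higher and 19.9% lower. The 15 windows of the first 75 Mb were all higher and formed 1 run, with 9 to 66 genes each. Chromosomes 4 and 15 each had a longer run, of 17 windows, and the next was 10 windows on chromosome 10.

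The windows of the distal stretch differed among themselves. The lowest median was 0.15, from 10 to 15 Mb, where 66.7% of 27 genes had a change above 0. The highest was 0.44, from 55 to 60 Mb, where 9 of 10 genes were called higher and none lower. That window holds JUN, the AP-1 transcription factor subunit, at 32.4 and 37.6 FPKM in WT and 47.9 and 49.4 FPKM in KO libraries, so its groups did not overlap. In all 15 windows both KO libraries had a higher median than both WT libraries. On the long arm 1 window was higher, 15 were level and 5 were lower. The higher one, from 195 to 200 Mb, held only 5 genes, and its WT libraries differed from each other by -0.22. The lowest was -0.23, from 170 to 175 Mb, and held GAS5, the host of several small nucleolar RNAs (snoRNAs), and its neighbours. Reads of hosted snoRNAs cannot be told apart from those of GAS5, so the 28 tested genes of this window may not be separate observations.

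**Figure D2:**
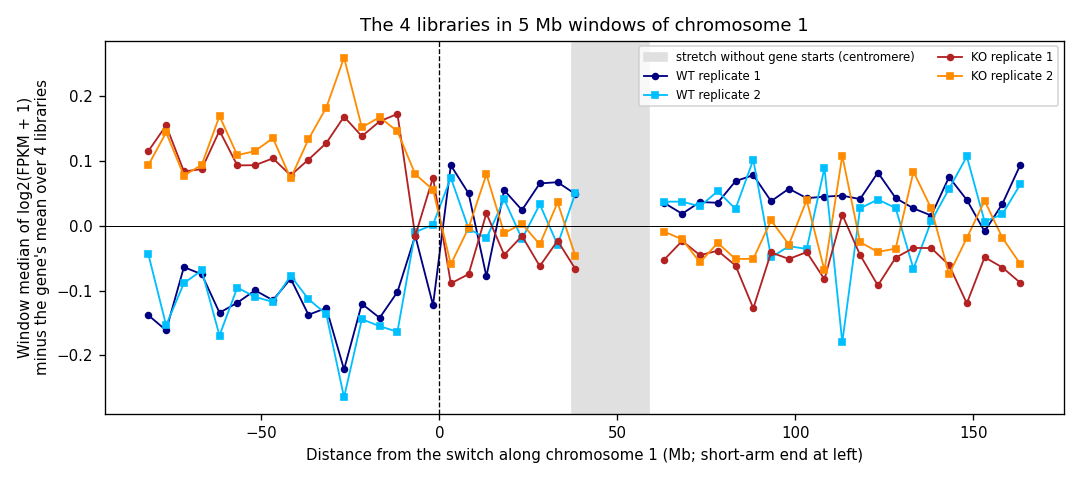
Median over the tested genes of each 5 Mb window (at least 5 genes) of log2(FPKM + 1) minus the gene's mean over the 4 libraries, for each library, against distance in Mb from the switch (dashed line). In the 15 distal windows both KO lines lie above both WT lines. Both lie below both WT lines in 4 of 8 proximal and 14 of 21 long-arm windows. Over all tested genes the same medians were 0.020 and 0.020 in WT and -0.028 and -0.011 in KO libraries. KO below WT was thus also found over all chromosomes, and windows of other chromosomes were not counted this way. In the 5-gene window at 195 to 200 Mb, WT replicate 2 stands apart.

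Where the change switched depended on how many genes were compared on each side. A switch was a gap between neighbouring tested genes where the medians of the 30 genes on each side differed by at least 0.25. With that rule chromosome 1 had 1 switch, between PRKACB (start 84078079) and RPF1 (start 84479266), from 0.22 before to -0.16 after. The single break that best divided the chromosome fell at the same gap. With 50 genes on each side the step was larger, -0.47, and fell between SNORD45B (start 75789477) and PIGK (start 77088989). The 4 pairs of a KO with a WT library put it at TYW3/ACADM in 1 pair, at PRKACB/RPF1 in 2 and at CTBS/SSX2IP in 1, and both pairs with KO replicate 2 had a second step at 10.4 Mb. Over 14 settings, all but the one without a filter, the largest switch lay between 74.7 and 84.3 Mb, and without a filter it lay at 51.5 Mb.

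The genes near these positions changed in both directions. TYW3, a tRNA-modifying enzyme at 74.7 Mb, was 13.2 and 12.3 FPKM in WT and 14.8 and 15.3 FPKM in KO libraries, the last of 3 neighbours called higher (FPGT, CRYZ and TYW3). The next tested gene, ACADM, the medium-chain acyl-CoA dehydrogenase, was lower, at 23.6 and 24.4 FPKM in WT and 21.4 and 21.1 FPKM in KO libraries. RABGGTB, a subunit of the enzyme that attaches lipids to Rab proteins, had 76.9 and 77.0 FPKM in WT and 75.5 and 78.9 FPKM in KO libraries, so its groups overlapped. The calls of TYW3 and ACADM were lost without KO replicate 1 and without KO replicate 2, and that of ACADM also without WT replicate 2. Changes were then mixed up to DNAJB4.

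ZZZ3 and USP33, a histone-reader subunit and a deubiquitinase, were called higher at 0.22 and 0.17, and both calls were lost without WT replicate 2, KO replicate 1 or KO replicate 2. In contrast, PIGK and NEXN had values of -0.03 and -0.17 that were not called. IFI44, an interferon-induced gene, rose by 0.53. ADGRL2, an adhesion receptor, was 2.94 and 2.38 FPKM in WT and 4.93 and 5.03 FPKM in KO libraries. PRKACB, a catalytic subunit of protein kinase A, was 2.39 and 2.04 FPKM in WT and 4.80 and 4.91 FPKM in KO libraries, a change of 0.87. TTLL7, the other tested gene among them, was called higher at 0.28, a call lost without KO replicate 2, so the 4 tested genes just before the switch were all called higher.

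On the far side, RPF1, a ribosome production factor, was 32.9 and 35.6 FPKM in WT and 27.4 and 28.3 FPKM in KO libraries. CCN1, a secreted matrix-associated protein, fell from 491 and 508 FPKM to 382 and 385 FPKM. DDAH1, which breaks down methylarginines, fell by 0.43. The window from 85 to 90 Mb was the lowest of the short arm, with a median of -0.18 and 13 of 24 genes called lower. Back on the near side of the switch, at 75.8 Mb, SNORD45A, SNORD45B and SNORD45C lie inside RABGGTB. Their reads cannot be told apart from those of their host. SNORD45A was called higher at 0.60, and SNORD45B, SNORD45C and RABGGTB were not called.

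**Figure D3:**
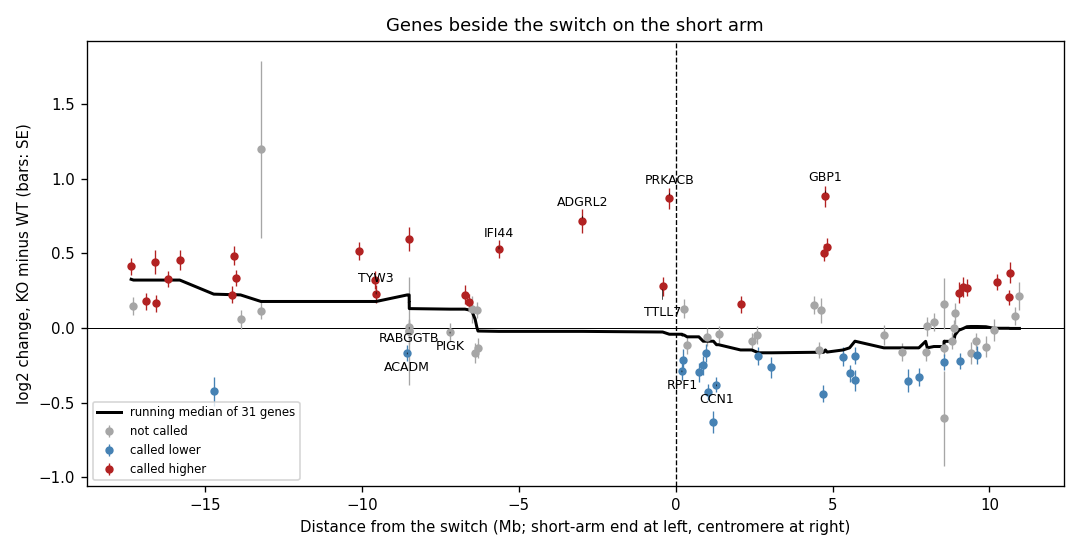
Change of each tested gene beside the switch (points; bars, SE from limma; y axis, log2(FPKM + 1), libraries labelled KO minus WT) against distance in Mb from the gap between PRKACB and RPF1. The running median of 31 genes (black line) lies above 0.2 at the left and falls in steps over about 10 Mb. It is already below 0 at DNAJB4 (-0.02), before the switch, and is still below 0 just beyond it.

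Genes under the filter took no part in these medians. The 888 of the distal stretch, pooled, had 290 and 296 fragments per 1000000 in WT and 326 and 327 per 1000000 in KO libraries, a log2 ratio of 0.15. The groups did not overlap, and the 4 totals rested on 6667 to 17057 fragments. In the proximal stretch the pooled genes under the filter had 141 and 131 per 1000000 in WT and 118 and 119 in KO libraries (-0.20). On the long arm they had 540 and 520 in WT and 484 and 505 in KO libraries (-0.10). By window, 10 of the 15 distal windows had a pooled ratio above 0. Across 43 windows with at least 100 such fragments, the pooled ratio and the window median had r = 0.49 and rho = 0.51. This is a description over windows of the same 4 libraries, which share their depth and scaling.

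All genes of the distal stretch together took 3.48% and 3.47% of the fragments in WT and 4.23% and 4.25% in KO libraries. The proximal stretch took 1.36% and 1.31% in WT and 1.28% and 1.31% in KO libraries, and the long arm 4.24% and 4.13% against 4.14% and 4.23%. The distal share was thus the one of these 3 whose groups were far apart.

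**Figure D4:**
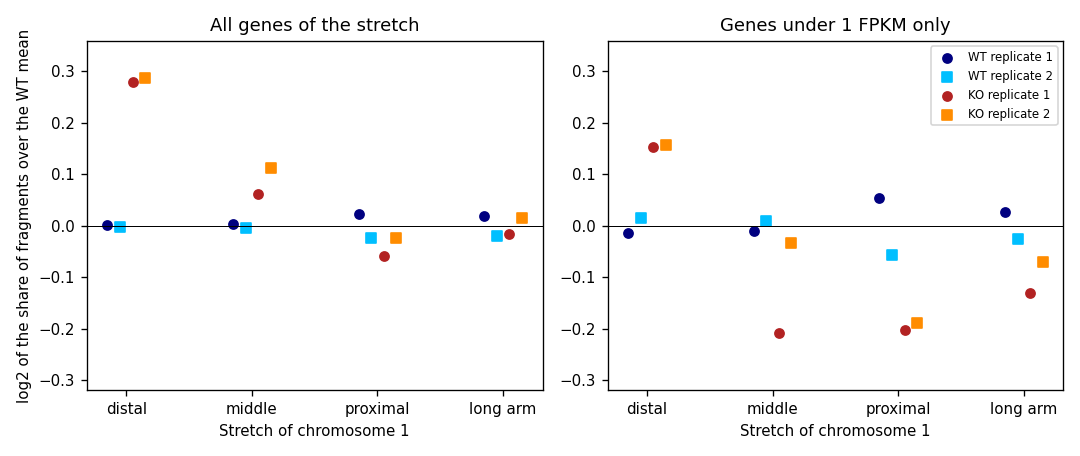
Log2 of each library's share of all fragments over the mean of the WT libraries, for all genes of each stretch of chromosome 1 (left) and for genes under 1 FPKM only (right). In the distal stretch both KO points lie above both WT points in both panels, at ratios of 0.28 and 0.15 for the group means.

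The distal change was found at low and high levels and in protein-coding, long non-coding and snoRNA genes. With voom, its median was 0.38, 0.36 and 0.28 in genes of low, middle and high WT level, split into 3 classes of like size. These medians were 0.22, 0.26 and 0.21 on the log2(FPKM + 1) scale. On that scale the distal median was 0.23 for 461 protein-coding genes, 0.18 for 18 long non-coding genes and 0.23 for 13 snoRNA genes. Genes on the plus and minus strands had medians of 0.21 and 0.24. Genes of the distal stretch had a median length of 3561 bp and a median promoter G and C content of 66.4%, against 3839 bp and 62.8% on the long arm and 3987 bp and 65.2% on other chromosomes. On the long arm, the 13 tested snoRNA genes had a median of -0.37, below the -0.07 of its protein-coding genes. SnoRNA genes can share a host gene, as those of GAS5 do, and their reads cannot be told apart from those of the host. The 13 of either stretch may therefore not be 13 separate observations.

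Most of the genes furthest from their surroundings lay on the long arm. The local median of a gene was that of the other tested genes of its 5 Mb window, and 1186 genes had one. Of these, 6 lay at least 1 (log2) above it and 9 at least 1 below it, against 0.697% above and 0.575% below over all chromosomes. The long arm held 4 of the 6 and 8 of the 9. These genes were chosen by their change, so their values are given without a test.

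S100A2, S100A4 and S100A6 are near neighbours (chr1:153534599-153565844). S100A2 was 19.2 and 20.3 FPKM in WT and 69.2 and 68.1 FPKM in KO libraries, which put it 1.78 above its local median. S100A4, which has been studied in cell motility and metastasis, was 191 and 201 FPKM in WT and 444 and 460 FPKM in KO libraries. S100A6 was 1443 and 1446 FPKM in WT and 2685 and 2841 FPKM in KO libraries. For each of the 3 genes the groups were far apart relative to the spread within them. S100A3, which lies between S100A4 and S100A2, was not called, at 13.01 and 12.76 FPKM in WT and 12.13 and 12.97 FPKM in KO libraries.

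Other genes above their surroundings were spread along the chromosome. WNT9A, a Wnt ligand, was 0.834 and 0.913 FPKM in WT and 3.42 and 3.23 FPKM in KO libraries. MUC1, a membrane mucin, was 1.44 and 1.57 FPKM in WT and 4.82 and 4.38 FPKM in KO libraries, and its neighbour THBS3, a thrombospondin, lay 0.97 above the local median. GPR153, an orphan receptor in the distal stretch, was 4.86 and 4.88 FPKM in WT and 14.3 and 13.4 FPKM in KO libraries, 1.04 above a local median that was itself raised. PTPRU, a receptor tyrosine phosphatase, EPHX1, an epoxide hydrolase, and PBXIP1 lay 0.78, 0.76 and 0.76 above theirs.

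KISS1, which encodes the precursor of the kisspeptins and is known as a metastasis suppressor, was furthest below. It had 38.3 and 45.3 FPKM in WT and 6.40 and 5.83 FPKM in KO libraries, a change of -2.59. IL24, a cytokine of the interleukin-10 family, was 3.61 and 4.07 FPKM in WT and 0.478 and 0.522 FPKM in KO libraries, which rested on 47 and 55 fragments in the KO libraries. KISS1 and IL24 lay 2.53 and 1.56 below their local medians, and neither had overlapping groups.

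PEAR1, a receptor of the EGF-repeat family, GLUL, the glutamine synthetase, and ADAMTSL4, a secreted matrix glycoprotein, lay 1.33, 1.30 and 1.15 below on the same measure. GLUL, for example, was 11.6 and 11.1 FPKM in WT and 3.69 and 3.87 FPKM in KO libraries. Among non-coding genes, LINC01139 was 3.67 and 3.45 FPKM in WT and 1.03 and 1.05 FPKM in KO libraries. KAZN-AS1 had 226 and 97 fragments in WT and 6 and 8 in KO libraries, but it is antisense to another gene, and without a stated strand setting its reads cannot be told apart from those of its partner. MIR4426 lay 1.20 below and was not called, with 25 to 57 fragments in each library.

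In the raised distal stretch, 6 protein-coding genes that were lower in KO libraries were the next furthest below their surroundings. They were MFSD2A, a lipid transporter, MANEAL, CNKSR1, a scaffold of Ras signalling, CITED4, a transcriptional coactivator, TMEM201, a protein of the inner nuclear membrane, and CACHD1. MFSD2A was 6.98 and 7.07 FPKM in WT and 4.48 and 4.18 FPKM in KO libraries, 0.84 below its local median. CITED4 had the widest spread of the 6, at 1.57 and 1.97 FPKM in WT and 1.02 and 0.673 FPKM in KO libraries.

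**Figure D5:**
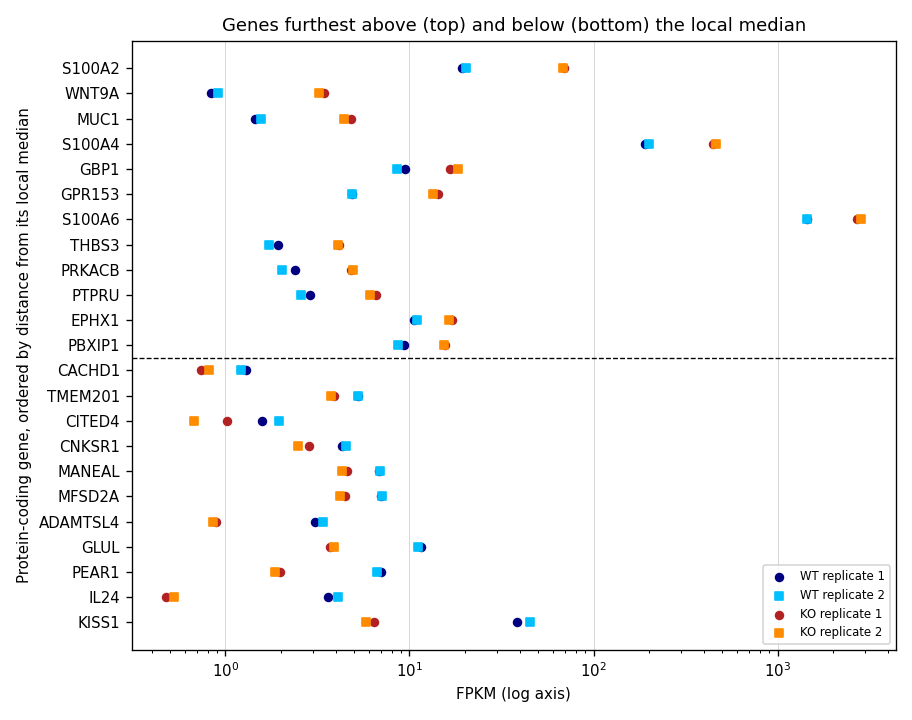
FPKM (log axis) in each of the 4 libraries for the protein-coding genes furthest above (top, S100A2 to PBXIP1) and furthest below (bottom, CACHD1 to KISS1) the local median of their 5 Mb window, up to 12 on each side. In each gene the KO points lie on 1 side of both WT points.

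Of 9 tested S100 genes, 6 were called higher and none lower, against 21.6% higher and 28.4% lower of all tested genes. Their median change was 0.52. Beside the 3 above, S100A10 rose by 0.52 (SE 0.06, adjusted p = 0.00027 by limma) and S100A13 by 0.53, and S100A5 was called at 0.32, a call that was lost without KO replicate 2. Among the other 6 S100 genes of the table, S100A14 had the highest level, at 0.376 to 0.537 FPKM. All 3 tested guanylate-binding proteins rose, although they lie in the proximal stretch, where the median was -0.06.

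GBP1 was 9.46 and 8.61 FPKM in WT and 16.7 and 18.3 FPKM in KO libraries. GBP2 was 8.85 and 8.73 FPKM in WT and 13.03 and 13.54 FPKM in KO libraries, and GBP3 rose by 0.51 (SE 0.06, adjusted p = 0.00031 by limma). The groups of all 3 were apart. GBP4 was under the filter and went the other way, at 0.555 and 0.507 FPKM in WT and 0.494 and 0.462 FPKM in KO libraries. GBP5 and GBP6, near 0 at no more than 0.0913 FPKM, were also lower in both KO libraries. GBP7 was above 0 only in KO replicate 1, at 0.0254 FPKM.

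Ribosomal protein genes lay in several stretches. RPL22, in the distal stretch, was 105.4 and 106.4 FPKM in WT and 136.1 and 145.1 FPKM in KO libraries, a rise of 0.40. RPL11, also distal, was called higher at 0.21, and RPL5, in the proximal stretch, was called lower at -0.23, and both calls were lost without KO replicate 1 and without KO replicate 2. RPS27, on the long arm, was not called, at -0.03.

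Of 26 tested genes on a list of cancer genes, 10 were called higher and 6 lower, beside 21.6% higher and 28.4% lower of all tested genes. Of the 11 in the distal stretch, 8 were called higher and none lower, beside 59.3% and 5.1% of all 506 tested genes of that stretch. Among the distal ones, CDKN2C, an inhibitor of CDK4 and CDK6, was 21.6 and 24.0 FPKM in WT and 32.3 and 33.2 FPKM in KO libraries. TNFRSF14, JAK1 and EPHA2 rose by 0.54, 0.34 and 0.30. The distal genes ARID1A, TP73 and SDHB were not called, at 0.19, 0.10 and -0.01. On the long arm, FH, the fumarate hydratase, fell from 46.3 and 46.4 FPKM to 37.7 and 36.9 FPKM, and PARP1, a DNA repair enzyme, was called lower at -0.27, a call lost without KO replicate 1. NRAS, in the proximal stretch, was 30.6 to 31.4 FPKM in all 4 libraries. The count higher was 8 without KO replicate 1 and 6 without KO replicate 2, and the count lower was 2 and 3.

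Of 10 tested spindle and kinetochore genes, 4 were called higher and none lower, but the count fell to 2 without KO replicate 1 and to 0 without KO replicate 2. Over all tested genes, 21.6% were called higher and 28.4% lower. Of the 10, 4 lie in the distal stretch, where 59.3% of tested genes were called higher and 5.1% lower. The median of the 10 changes, each minus its local median, was 0.005. Of 8 genes of electron transport and ATP synthase, 2 were called higher and 2 lower, a share called near the 49.9% of all tested genes. NDUFS5, a complex I subunit encoded in the distal stretch, was 167 and 160 FPKM in WT and 229 and 245 FPKM in KO libraries. ATP5PB, an ATP synthase subunit encoded in the proximal stretch, was 78.4 and 82.1 FPKM in WT and 65.9 and 65.2 FPKM in KO libraries. The count in each direction was 1 without KO replicate 1 and 1 without KO replicate 2.

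Smaller families of the proximal stretch and the long arm were mixed. LAMB3, a laminin chain, was called higher at 0.21, a call lost without KO replicate 1 and without KO replicate 2. CD55, which limits complement on the cell surface, fell from 76.8 and 76.3 FPKM to 53.9 and 57.3 FPKM, and C4BPB was called lower at -0.18 but not without KO replicate 1 or without KO replicate 2. GSTM2 and GSTM1, neighbouring glutathione S-transferases of near-identical sequence, were called in opposite directions, at 0.27 and -0.25. The GSTM2 call was lost without KO replicate 1 or KO replicate 2, and the GSTM1 call without KO replicate 1. With voom, 2 of the 4 tested genes of this family were called higher and 0 lower, and without a filter 0 were called in either direction. Reads of such near-identical copies can be split between them.

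Of 4 proteasome genes, PSMB2 in the distal stretch was called higher at 0.18, and PSMD4 and PSMB4 on the long arm were called lower at -0.18 and -0.28. Among all tested genes, 21.6% were called higher and 28.4% lower. The PSMB2 call was lost without WT replicate 1, KO replicate 1 or KO replicate 2, the PSMD4 call without KO replicate 1 or KO replicate 2, and the PSMB4 call without KO replicate 2. Of 3 snoRNA hosts, GAS5 fell from 176 and 190 FPKM to 135 and 136 FPKM, and the distal SNHG3 and SNHG12 were not called, at -0.01 and -0.03. The 1 tested histone gene, H2BC21, had a mean of 1.01 FPKM, just inside the filter, and was not called. Just outside it was GFOD3P, at 0.995 FPKM. FAM72B, SRGAP2C, FAM72C, SRGAP2D and NBPF15, beside the centromeric gap, belong to families of near-identical copies, and their changes, from -0.21 to -0.11, are uncertain for that reason.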

How the data were processed

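RNA of 4 libraries, 2 WT and 2 labelled KO by their titles, was sequenced commercially on an Illumina platform, as the labels' protocols state. The authors deposited 1 table of FPKM values with exon coordinates and gene lengths, per the file headers. STAR, Subread and DESeq2 are listed, without versions, in the submitters' processing notes. The build, gene models and strandedness of counting were not given in the sources used here. FPKM times length in kilobases summed to 1000000 per library, and dividing by the smallest value gave whole fragments for 100% of values (tolerance 0.001), so depths of 22503981 to 52163811 fragments were computed back. The table held 0 columns of other samples. Symbols came from RefSeq by Entrez ID for 3665 of the 3807 genes. Of 3664 matched genes, 98.6% started or ended no more than 1000 bp from their place on GRCh38.p14, and coordinates are as deposited.

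Changes are KO minus WT means of log2(FPKM + 1), which understates those of low genes. The test was limma 3.58.1 (R 4.3.3; trend, robust) on the 11716 genes of all chromosomes with mean FPKM of 1 or more, adjusted by Benjamini-Hochberg over all of them (threshold 0.05). On chromosome 1, 23 genes passed the filter through the WT mean alone and 11 through the KO mean alone. Windows, switches and local medians were computed in Python 3.11.15 with pandas 2.3.3, and the steps were tested on simulated data. The rule for names took the 12 protein-coding genes furthest above and below the local median, the 3 tested genes on each side of a switch and of the centromeric gap, and members of 13 gene lists. Other genes beside the switch, non-coding genes, JUN's window, GBP4, GBP5, GBP6 and GBP7 were chosen after their values were seen. Some results that the rule names are not reported here. The members and lists were chosen with earlier results of these data known. Alternatives were a pseudocount of 0.1, filters at 5 FPKM and none, quantile and median-of-ratios scaling, limma without trend and robust, voom on the fragments, a replicate block, other window and switch sizes, and each library left out. Protein-coding genes only, centring, a single break and a crossed block were added after seeing the data.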

Additional observations from a re-analysis of the deposited data

How the results depend on the processing

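The direction of the arm medians and of their difference held under every alternative run, and sizes moved. The short-arm median, 0.17 as reported, was 0.20 with a pseudocount of 0.1, 0.022 without a filter, 0.21 with quantile normalization, 0.23 with median-of-ratios scaling, 0.26 with voom and 0.21 after centring. The long-arm median was -0.014 without a filter, -0.021 with median-of-ratios scaling, -0.026 with voom and -0.035 after centring. Their difference was 0.28 with a pseudocount of 0.1, 0.037 without a filter and 0.29 with voom. Without a filter, 7 windows were higher and 0 lower, and with 10 Mb windows 8 and 1. The number of switches was 3 with a pseudocount of 0.1, 2 with a filter at 5 FPKM, 2 without a filter and 2 with 20 genes on each side. The largest switch lay at 78.0 Mb with a filter at 5 FPKM, 51.5 Mb without a filter, 75.8 Mb with quantile normalization, 76.4 Mb with 50 genes on each side and 74.7 Mb for protein-coding genes only. Genes at least 1 above the local median numbered 14 with a pseudocount of 0.1, 3 with a filter at 5 FPKM and 14 with voom. Those below numbered 2 with a filter at 5 FPKM and 15 with voom.

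Leaving out each library in turn gave 255 to 448 genes called higher and 114 to 281 lower, short-arm medians of 0.17 to 0.19, arm differences of 0.24 to 0.27, 3 to 6 lower windows, 1 to 3 switches and a largest switch at 75.2 to 84.3 Mb. Without KO replicate 2 there were 3 switches, and without KO replicate 1 there were 3 lower windows. In the fits without a WT library, limma's prior degrees of freedom were infinite, so their p-values rest on 1 spread shared by genes of like level. The lone library of a group was assumed to vary like the other group. NOTCH2, 0.06 and not called as reported, was called at -0.14 without WT replicate 2. A pseudocount of 0.1 gave the same 619 calls on chromosome 1, while 27 differed over all chromosomes. With the replicate block, 368 genes were called higher and 206 lower. The numbers mark no stated pairing, and same-numbered deviations had a correlation of -0.22. With the numbers crossed, 433 were called higher and 271 lower. Depth limits genes with few fragments, such as MIR4426.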
